A study of Homo sapiens with 6 samples.

Results

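S100 genes encode small calcium-binding proteins with paired EF-hand loops, which bind calcium and then expose a surface for partner proteins. Most of them lie next to each other on the long arm of human chromosome 1, beside the genes of the cornified envelope, and squamous epithelia express many of them. S100A8 and S100A9 form calprotectin, a complex that is released in inflammation and that sequesters metal ions. S100A10 differs from its relatives in that its loops have lost calcium binding, and it is held in a complex with annexin A2 at the cell membrane. The genes described here are 10 S100 genes chosen by symbol, S100A2, S100A4, S100A6, S100A7, S100A8, S100A9, S100A10, S100A11, S100A14 and S100A16, out of 15 S100 genes and 14959 genes in the deposited table, and all 10 were found in it. No filter on low values was applied, so all 10 entered the tests.

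RNA was measured in UM-SCC1, a long-established cell line from a human squamous carcinoma of the head and neck (HNSCC), in bulk. The cells received miR-204-5p mimics (3 libraries) or control mimics (3 libraries) by transfection, and RNA was taken 48 h later. Mimics are synthetic RNA duplexes that load the silencing complex with a chosen miRNA strand. All 6 libraries come from transfected cells of this single line, each group was made up of 3 independent experiments, and no untransfected cells were compared. The comparison asks which mRNAs differ in level when miR-204-5p is supplied.

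The seed of a miRNA, bases 2 to 8, sets most of its pairing with mRNAs. The mature sequence of miR-204-5p (RefSeq, GRCh38.p14) is shown with its seed in capitals, followed by the matches to it that the S100 mRNAs hold. These lie in coding sequence, and the capitals mark the match AAGGGAA (a 7mer-A1). In it AAGGGA pairs with seed bases 2 to 7, and the last A lies opposite the first base of the miRNA.
miR-204-5p: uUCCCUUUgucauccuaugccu
S100A10 coding: acatgaagcagAAGGGAAagaagtag
S100A2 coding: ccagagcccagAAGGGAAaagtgattgtcc
The S100A10 match lies on the minus strand of chromosome 1 at 151983171 to 151983177 (GRCh38, GENCODE 29), in exon 3, and ends 8 bases before the end of the coding sequence, stop codon included. Both S100A10 transcripts with an annotated stop codon hold it. The S100A2 match, at 153563445 to 153563451 on the minus strand in exon 3, is held by 1 of 6 coding transcripts of that gene, and not by the transcript that the deposited table lists.
In the 3'UTR, where most functional miRNA sites are found, none of the 10 genes held a seed match. The letters searched along the transcript were AAAGGGAA (8mer), AAAGGGA (7mer-m8), AAGGGAA (7mer-A1) and AAGGGA (6mer), which overlap each other. The longest 3'UTR of the 10 genes ran from 62 bases in S100A7 to 648 bases in S100A16, so they are short. The 6mer was present in the longest 3'UTR of 42.6% of 14847 genes and in 10.7% of the 3579 genes whose longest 3'UTR had at most 648 bases, and for the 7mer-m8 these shares were 20.1% and 3.58%. The other 5 S100 genes of the table lacked the 6mer there as well. The absence of these letters says nothing about matches of another kind.

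Expression is given in FPKM, the number of fragments scaled to transcript length and to sequencing depth, a level per length that can be compared between genes. The table gives no fragment numbers. Low values of genes with 1 annotated transcript, 418 to 442 per library, were multiplied by length. Of these, 29.3% to 35.6% lay within 0.05 of a whole multiple of one step, against 7.85% to 10.7% for a mismatched step. The step was chosen in each library as the best fit to the same values, so a closer fit was built in. These steps put the relative depth of the 6 libraries between 1 and 1.26, with overlap between groups. How many reads a step stands for is unknown. Spearman correlations across genes were 0.9899 to 0.9908 between libraries of a group and 0.973 to 0.976 between groups. All 14959 genes were compared with limma on the log2(FPKM + 1) scale. The difference on this scale, miR-204-5p mimics minus control mimics, is written log2FC, with its standard error (SE) and limma's p-value adjusted over all genes. This scale understates the changes of weakly expressed genes. Markers of squamous keratinocytes were expressed: KRT5 ranged from 118 to 184 FPKM over the 6 libraries and KRT14 from 80.6 to 120 FPKM. The levels of DSG3 (3.80 to 9.33 FPKM) and KRT6A (0.970 to 3.36 FPKM) were far below these. That list holds 8 markers, of which 7 had an adjusted p under 0.05, as had 40.8% of all genes. The 5 that fell included DSG3, a desmosomal cadherin (log2FC −1.01), where 16.8% of all genes fell. The 2 that rose were KRT6A, a stress keratin (log2FC 0.81), and SFN (log2FC 0.26), where 23.9% of all genes rose. KRT17 did not pass (log2FC −0.18). The summed level of the 8 markers was 801 to 891 FPKM with miR-204-5p mimics, against 927 to 951 FPKM. The list was not tested as a set, nor was the part of these marker differences in the S100 values.

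With control mimics, S100A11 was the most abundant of the 10 genes (689.9 ± 13.9 FPKM, SD, n = 3) and held rank 36 among all genes of the table. S100A6 (294 ± 6.72), S100A9 (247 ± 15.1) and S100A2 (183 ± 5.27 FPKM) came next, each apart from its neighbours in every library. S100A10 (106 ± 4.59), S100A14 (97.5 ± 8.32), S100A8 (83.6 ± 13.8) and S100A16 (74.3 ± 3.15 FPKM) formed a group in which the ranges of neighbouring genes overlapped. S100A4 (7.21 ± 0.384) and S100A7 (1.98 ± 0.650 FPKM) were far lower. With miR-204-5p mimics the order changed in its middle part: S100A10 passed S100A2 and reached the range of S100A9, while S100A8 came to lie below S100A16, with overlapping ranges. Together the 10 genes made up 0.624% to 0.654% of all FPKM with control mimics and 0.514% to 0.556% with miR-204-5p mimics.

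**Figure D1:**
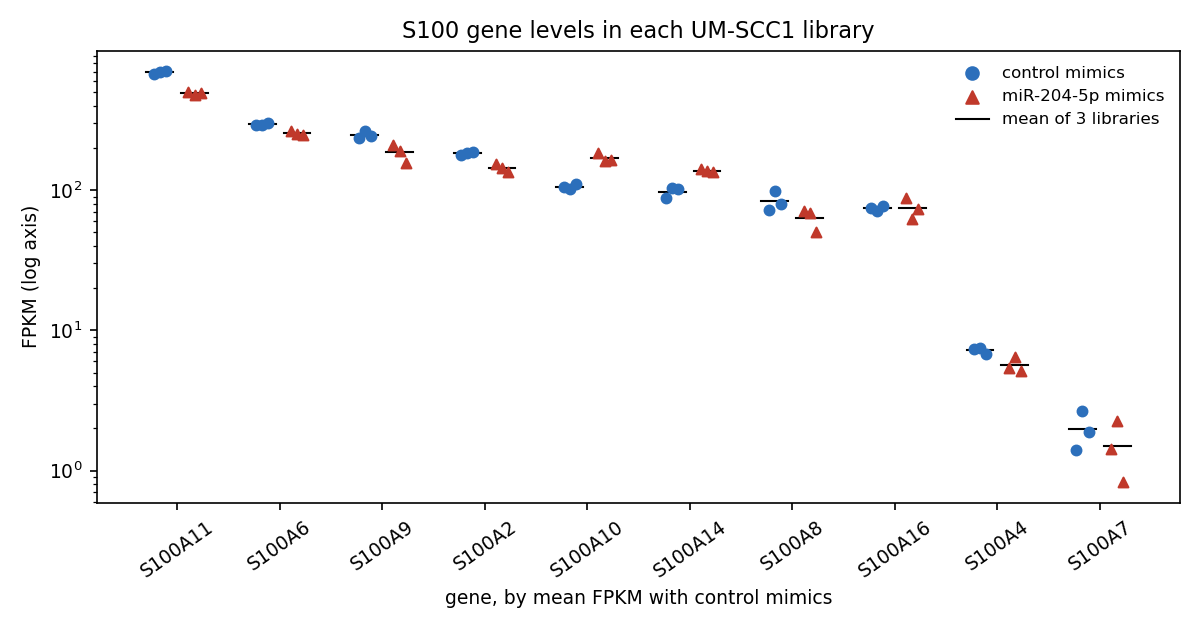
FPKM (log axis) of the 10 S100 genes in each library, with circles for control mimics, triangles for miR-204-5p mimics and a bar for the mean of 3 libraries. S100A10 and S100A14 lie higher in all 3 libraries with miR-204-5p mimics, S100A11, S100A6, S100A9, S100A2, S100A8 and S100A4 lie lower, and S100A16 and S100A7 overlap between groups.

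Of the 10 genes, 5 were lower (S100A11, S100A9, S100A2, S100A4, S100A6) and 2 were higher (S100A10, S100A14) with miR-204-5p mimics at a adjusted p under 0.05, while S100A8, S100A7 and S100A16 did not pass. Among all genes tested, 40.8% passed, 16.8% as lower and 23.9% as higher. This background holds 3455 genes with a mean under 1 FPKM, and none of the 10 genes is that low. Fitted without such genes, 5761 of 11504 genes passed (2433 lower, 3328 higher), and again 7 of the 10 S100 genes. The median log2FC of the 10 genes was −0.29, against 0.03 over all genes. The FPKM ranges of both groups were apart for 8 of the 10 (6 lower, 2 higher), as they were for 53.6% of all genes (22.7% lower, 30.9% higher). Leaving out 1 library at a time left 5 or 6 genes called, 3 or 4 lower and 2 higher, and the count of 3 lower genes was that without control mimics replicate 2.

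**Figure D2:**
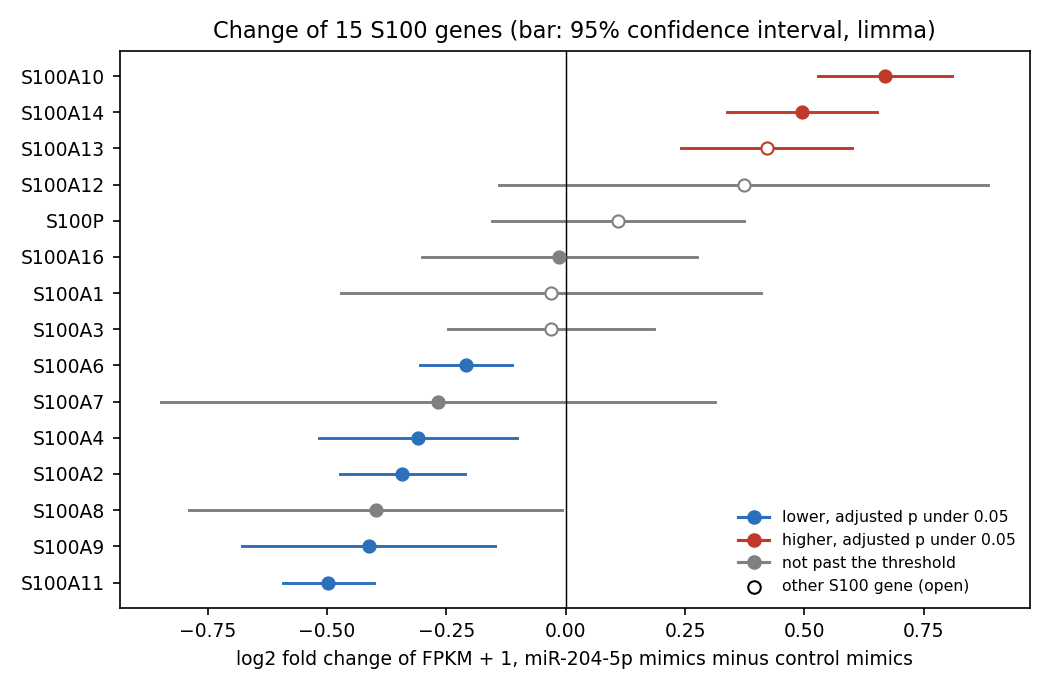
Log2FC of the 15 S100 genes of the table with its 95% confidence interval from limma, filled for the 10 genes described and open for the other 5. S100A10 has the largest positive value (0.67) and S100A11 the largest negative value (−0.50).

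S100A10, the annexin A2 ligand, showed the largest change of the 10. Its FPKM was 182, 162 and 164 with miR-204-5p mimics and 105, 102 and 111 with control mimics. All libraries with miR-204-5p mimics were thus above all with control mimics, and the mean was higher by 59.7%. The log2FC was 0.67 (SE 0.0586, adjusted p = 0.000345), and it stayed from 0.61 to 0.70 under the 13 alternatives. S100A10 (ENSG00000197747) is listed at 151982915 to 151994390 of chromosome 1 (minus strand), with 3 exons. Its coding sequence carries the 7mer-A1 printed above, and whether that match bears on the S100A10 level was not tested.

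S100A14, which is expressed in epithelia and lies at the other end of the gene cluster, also rose. It had 141, 137 and 134 FPKM with miR-204-5p mimics and 87.9, 103 and 102 FPKM with control mimics, without overlap. The log2FC was 0.50 (SE 0.0656, adjusted p = 0.00163). Its neighbour S100A16, which can pair with S100A14 as a protein, had 88.0, 62.0 and 72.9 FPKM with miR-204-5p mimics and 75.04, 70.8 and 77.0 FPKM with control mimics. The values of S100A16 overlapped and its log2FC was −0.01, with a 95% confidence interval of −0.30 to 0.27 (adjusted p = 0.942). The FPKM ratio of S100A14 to S100A16 was 1.61 to 2.21 with miR-204-5p mimics and 1.17 to 1.45 with control mimics.

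S100A11, a partner of annexin A1 that takes part in keratinocyte growth control and membrane repair, showed the largest decrease. Its FPKM was 502, 474 and 490.2 with miR-204-5p mimics and 676, 690.5 and 703 with control mimics, and the spread within groups was small (coefficients of variation of 2.91% and 2.01%). The groups were well apart, and the log2FC was −0.50 (SE 0.0399, adjusted p = 0.000257). S100A11 (ENSG00000163191) is listed at 152032506 to 152037035 of the same strand, next to S100A10, and the FPKM ratio of S100A11 to S100A10 was 6.34 to 6.77 with control mimics and 2.75 to 3.00 with miR-204-5p mimics. GENCODE 29 holds processed pseudogenes of S100A11 on chromosome 7, S100A11P1 and S100A11P2, with which reads may be shared, and an antisense gene that overlaps S100A11.

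S100A2, a p53- and p63-responsive gene of basal squamous cells, had 154, 144 and 136 FPKM with miR-204-5p mimics and 178, 184 and 188 FPKM with control mimics. The groups did not overlap (log2FC −0.34, SE 0.0545, adjusted p = 0.00337). For S100A6, or calcyclin, the values were 265, 249.7 and 249 FPKM against 290.3, 290.1 and 302 FPKM. The decrease of S100A6 was the smallest of the called genes, a log2FC of −0.21 (SE 0.0401, adjusted p = 0.00715), and its groups did not overlap. S100A4, known from fibroblasts and from metastasis research, was weakly expressed, with 5.42, 6.40 and 5.10 FPKM against 7.30, 7.53 and 6.78 FPKM. Its groups lay close together without overlap. The log2FC of S100A4 was −0.31 (SE 0.0861, adjusted p = 0.0286), and the call was lost when mimics replicates 1 or 3 or control mimics replicates 1 or 2 were left out, with an adjusted p of 0.0762 to 0.0874. S100A4 and S100A3 overlap on the same strand in GENCODE 29, although their listed transcripts do not. S100A3 had 5.54 ± 0.340 and 5.70 ± 0.703 FPKM (SD, n = 3; log2FC −0.03, adjusted p = 0.809). Fibroblast markers were low: DCN, COL3A1, PDGFRA and THY1 are not listed in the table used here, LUM reached at most 0.0956 FPKM and COL1A1 10.5 FPKM. Of the 4 listed fibroblast markers, COL1A2 and PDGFRB were higher with miR-204-5p mimics (log2FC 0.28 and 0.21), both with a mean FPKM under 1 in each group, and their summed level was 9.81 to 11.6 against 8.58 to 9.41 FPKM. Their part in the S100A4 values was not tested.

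The calprotectin subunits S100A9 and S100A8 both had values below all control values in the 3 mimics libraries, and S100A9 alone passed the threshold. S100A9 had 211, 191 and 157 FPKM with miR-204-5p mimics and 236, 264 and 241 FPKM with control mimics, a log2FC of −0.41 (SE 0.110, adjusted p = 0.0248). The call for S100A9 was lost when mimics replicate 2 or control mimics replicates 2 or 3 were left out, with an adjusted p of 0.0572 to 0.0788. S100A8 had 71.1, 68.7 and 50.3 FPKM against 72.2, 98.9 and 79.6 FPKM, and the highest value with miR-204-5p mimics nearly touched the lowest with control mimics. Its log2FC was −0.40, close to that of S100A9, with a 95% confidence interval of −0.79 to −0.01 (adjusted p = 0.0966), and it was −0.24 without mimics replicate 3. Mimics replicate 3 was the lowest library for both genes. The FPKM ratio of S100A9 to S100A8 was 2.97, 2.79 and 3.11 with miR-204-5p mimics and 3.26, 2.67 and 3.03 with control mimics, so the groups overlapped. Myeloid cells also make both proteins, and the levels of myeloid markers differed widely. PTPRC reached at most 0.546 FPKM, CSF1R 0.282, ITGAM 0.563 and FCGR3A 0.487, and CD163 is not listed, while LYZ ranged from 3.59 to 4.59, CD68 from 8.68 to 11.7 and CD14 from 11.8 to 16.6 FPKM over the 6 libraries. Of the 7 listed myeloid markers, CD14 alone passed the threshold (12.4 ± 0.965 against 16.3 ± 0.423 FPKM, SD, n = 3, log2FC −0.37, adjusted p = 0.00407), and their sum was 25.9 to 29.2 FPKM against 31.7 to 32.8 FPKM. The part of these markers in the S100A8 and S100A9 values was not tested. In bulk RNA, fewer cells that express a gene and less of its mRNA per cell cannot be told apart.

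S100A7, or psoriasin, an antimicrobial protein of inflamed skin, had the lowest level of the 10 genes. It had 1.43, 2.27 and 0.825 FPKM with miR-204-5p mimics and 1.39, 2.68 and 1.87 FPKM with control mimics, and the groups overlapped widely. Its log2FC of −0.27 had a 95% confidence interval of −0.85 to 0.31 (adjusted p = 0.419) and ran from −0.48 to −0.06 with 1 library left out, lowest in size without mimics replicate 3 (−0.06) or control mimics replicate 2 (−0.10). With a pseudocount of 0.1 it was −0.43, and a difference was not detectable given this spread. S100A7A, S100A7L2 and the pseudogene S100A7P1 are related genes of GENCODE 29 that are not listed in the table, and reads may be shared with them.

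Among the 5 other S100 genes of the table, S100A13 alone passed. S100A13, which takes part in the release of proteins without a signal peptide, had 50.9, 43.5 and 50.3 FPKM with miR-204-5p mimics and 35.5, 33.7 and 38.0 FPKM with control mimics (log2FC 0.42, SE 0.0745, adjusted p = 0.00520), without overlap. Its listed transcript overlaps that of S100A1 on the opposite strand, and whether strand was used in counting is not given in the sources used here. S100A1 had 1.66 ± 0.590 and 1.69 ± 0.361 FPKM (SD, n = 3; log2FC −0.03). S100A12 had 3.05 ± 0.778 and 2.15 ± 0.745 FPKM (log2FC 0.37, adjusted p = 0.213). S100P, on chromosome 4 and thus outside the cluster, had 20.8 ± 2.71 and 19.2 ± 2.16 FPKM (log2FC 0.11, 95% confidence interval −0.15 to 0.37, adjusted p = 0.470). S100A12 and S100P had overlapping groups.

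The 14 S100 genes on chromosome 1 span 1.65 Mb from 151982915 to 153632034 (GRCh38), with S100A10 and S100A11 at one end and a gap of 1321 kb before S100A9. The rises of S100A14 and S100A13 sat side by side at the far end, 2.86 kb apart, next to S100A16 without a detected change. The stretch from S100A9 to S100A2 held 4 of the 5 genes that fell. S100A10 and S100A11, 38.1 kb apart and read from the same strand, moved in opposite directions. Of the 39 other table genes from 500000 bases before to 500000 bases after the 10 genes, 12 were lower and 9 higher, 53.8% in all, with a median log2FC of 0.00, where 40.8% of all genes were called (16.8% lower, 23.9% higher). The largest changes among them were decreases: SPRR1A, a precursor of the cornified envelope, fell from 5.26 ± 0.893 to 2.18 ± 0.490 FPKM (SD, n = 3; log2FC −0.98, adjusted p = 0.00262), RAB13, a GTPase of tight junction traffic, had a log2FC of −0.88, and IVL, which encodes involucrin, one of −0.84. The order of these depends on the pseudocount: with 0.1 in place of 1, log2FC was −1.59 for IVL, −1.24 for SPRR1A and −0.88 for RAB13.

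**Figure D3:**
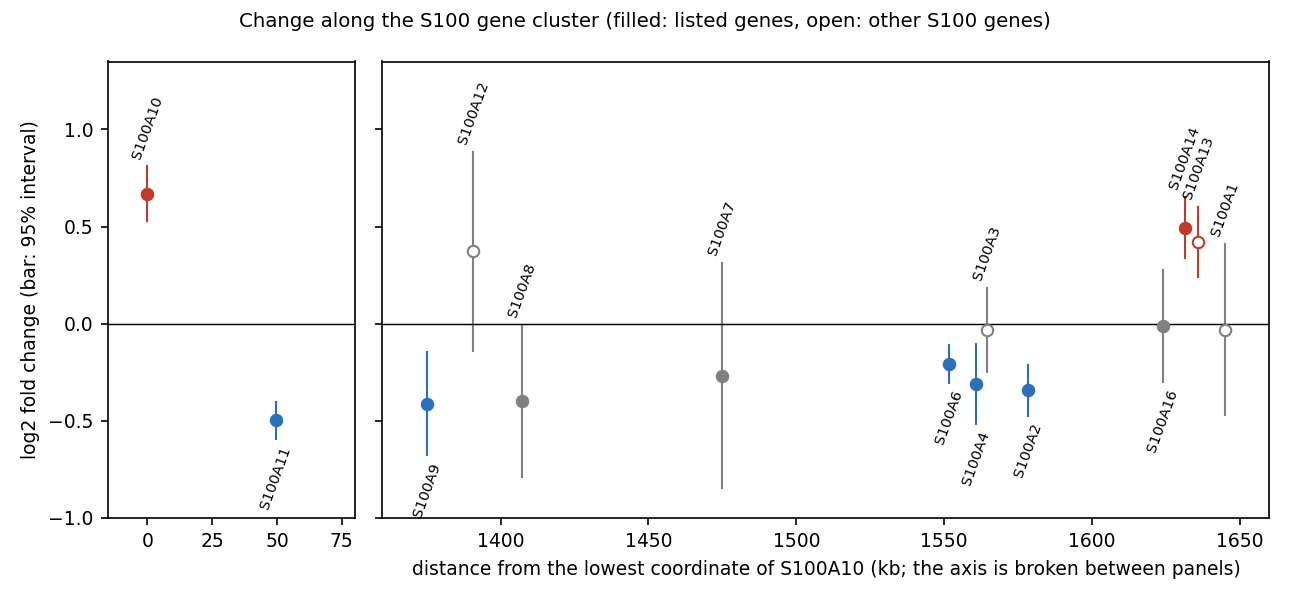
Log2FC with its 95% confidence interval against the distance in kb along chromosome 1 from the lowest coordinate of S100A10, for the 14 S100 genes of the cluster, filled for the genes described and open for the others. Genes that did not pass the threshold are grey, higher genes (red) stand at both ends, and lower genes (blue) are S100A11 and genes between S100A9 and S100A2.

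Proteins that bind S100 proteins, receptors and enzymes that they act on were counted from a list of 30 genes, of which 27 were in the table. With miR-204-5p mimics 5 of these were lower and 5 were higher, 37.0% in all against 40.8% of all genes, and the median log2FC was 0.02. ANXA2, the membrane partner of S100A10, rose with it: its FPKM was 128, 126 and 112 with miR-204-5p mimics and 83.3, 88.9 and 99.7 with control mimics (log2FC 0.43, SE 0.0809, adjusted p = 0.00678). S100A10 exceeded ANXA2 in every library, by a ratio of 1.28 to 1.46 with miR-204-5p mimics and 1.11 to 1.26 with control mimics. AHNAK, a giant scaffold protein that binds the complex of S100A10 and annexin A2, went the other way. It fell from 74.2 ± 5.08 to 36.7 ± 0.544 FPKM (SD, n = 3), a log2FC of −0.99 (SE 0.0545, adjusted p = 8.06e-05). ANXA1, the partner of S100A11, had 428 ± 23.2 and 389 ± 10.1 FPKM (log2FC 0.14, adjusted p = 0.0711). The FPKM ratio of S100A11 to ANXA1 was 1.09 to 1.22 with miR-204-5p mimics and 1.73 to 1.83 with control mimics. CACYBP, the calcyclin-binding protein, rose from 19.7 ± 0.536 to 25.3 ± 2.00 FPKM (log2FC 0.34, adjusted p = 0.00573) while S100A6 fell, and it overlaps MRPS14 on the opposite strand. ALCAM, an adhesion molecule named as an S100B receptor, fell from 54.2 ± 0.673 to 38.1 ± 1.201 FPKM (log2FC −0.50, adjusted p = 0.000195).

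Among receptors of extracellular S100 proteins, AGER and TLR4 were weakly expressed, while BSG, which encodes basigin, a receptor of S100A9, had 407 ± 63.2 FPKM with miR-204-5p mimics and 441 ± 27.3 FPKM with control mimics (SD, n = 3; log2FC −0.13, adjusted p = 0.434). AGER, which encodes RAGE, had 3.61, 2.84 and 3.31 FPKM with miR-204-5p mimics and 2.25, 2.69 and 2.17 with control mimics (log2FC 0.34, adjusted p = 0.0314), a call that 6 of 13 alternatives lost. TLR4, a receptor of calprotectin, is listed at 0, 0.0482 and 0.0468 FPKM with miR-204-5p mimics and at 0.0219, 0.0275 and 0.0328 with control mimics. These TLR4 values were close to 0 in both groups. Unlike the 10 S100 genes, 9 of the 27 partner genes carry a 7mer or an 8mer in their longest 3'UTR. Of these, 3 were lower, 1 was higher and 5 did not pass, while of the other 18 partners 2 were lower, 4 were higher and 12 did not pass. The longest 3'UTR need not be the one in use. The match of MYH14 lies in exon 20 of 21 and those of PLAUR in exon 2 of 4, before the last exon, and both genes did not pass. An 8mer is held by AHNAK and ALCAM, which fell, and by CYBB, a subunit of the phagocyte oxidase (log2FC −0.0031, adjusted p = 0.972), and a 7mer-A1 by CACYBP, which rose. The 8mers of the partners that fell are shown with the match in capitals.
AHNAK 3'UTR: tataaactccAAAGGGAAacacaccgactg
ALCAM 3'UTR: acacaactttAAAGGGAAgataaatgaaca
The AHNAK match lies in exon 5 on the minus strand of chromosome 11 at 62516658 to 62516665, and the ALCAM match in exon 16 on the plus strand of chromosome 3 at 105575800 to 105575807 (GRCh38). The transcript that the table lists for AHNAK is a short one of 701 bases, not the one that carries this 3'UTR. Which length the FPKM of AHNAK was scaled to is not given. An 8mer was present in 9.34% of the 14847 longest 3'UTRs, the 7mer-m8 letters in 20.1% and the 7mer-A1 letters in 21.4%. How many genes with such letters were lower was not counted over all genes.

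**Figure D4:**
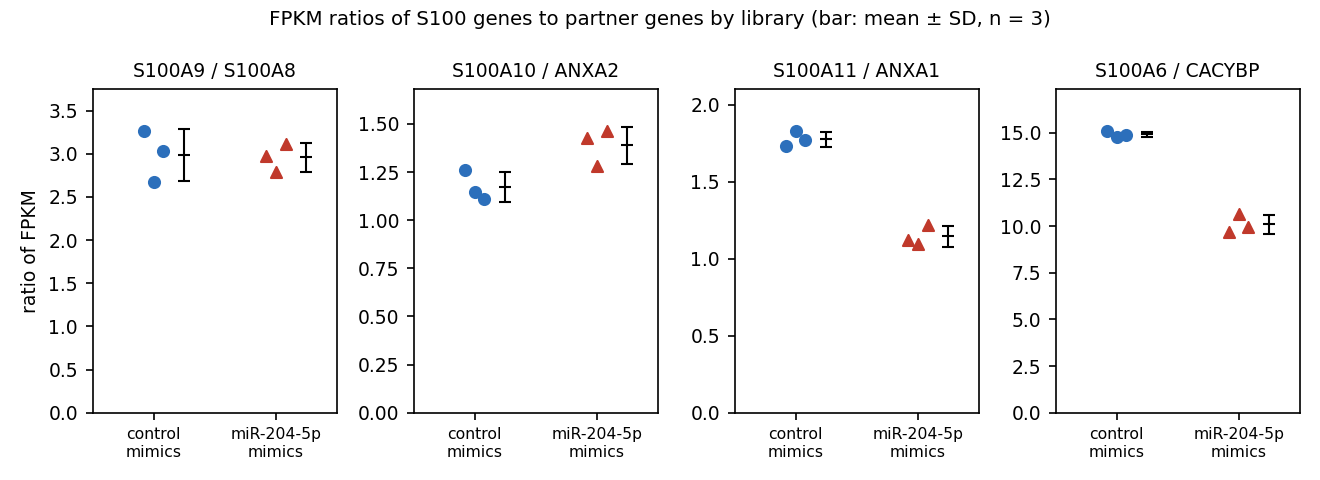
Ratios of FPKM in each library for S100A9 to S100A8, S100A10 to ANXA2, S100A11 to ANXA1 and S100A6 to CACYBP, with circles for control mimics, triangles for miR-204-5p mimics and bars for the mean ± SD (n = 3). The ratio of S100A9 to S100A8 overlaps between groups, and the other ratios do not.

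Of 24 genes that encode transcription factors, receptors and cytokines known to act on S100 gene expression, 23 were in the table. With miR-204-5p mimics 12 were lower and 3 were higher, 65.2% in all against 40.8% of all genes, with a median log2FC of −0.19. Only 1 of the 23 had a mean under 1 FPKM, against 3455 of all 14959 genes. Fitted without genes that low, 14 regulators and 5761 of 11504 genes were called. The count of 15 called genes became 10 without mimics replicate 2 or without control mimics replicate 2, and also with the replicate number as a block. TP63, the lineage factor of squamous cells and a regulator of S100A2, had 23.9, 28.1 and 30.1 FPKM with miR-204-5p mimics and 57.6, 55.4 and 54.7 FPKM with control mimics (log2FC −1.01, adjusted p = 0.000276). FOSL2, an AP-1 subunit, fell from 41.0 ± 3.24 to 23.8 ± 0.973 FPKM (SD, n = 3; log2FC −0.76, adjusted p = 0.000322). IL1A, an epidermal cytokine that induces calprotectin, fell from 165 ± 3.26 to 97.3 ± 3.35 FPKM (log2FC −0.75, adjusted p = 6.74e-05). Of the 23 genes, 3 held a 7mer or an 8mer in their longest 3'UTR, TP63, FOSL2 and IL1B, and these were lower, as were 9 of the 20 others, IL1A among them. The share of lower genes among all genes with such letters was not computed, so these counts have no background to be set against. IL6 went from 0.0998 ± 0.0455 to 1.104 ± 0.195 FPKM (log2FC 0.93, adjusted p = 0.000280), and its log2FC was 2.60 with a pseudocount of 0.1. The 12 lower regulators thus included TP63, FOSL2 and IL1A, and also STAT3 (log2FC −0.34, adjusted p = 0.00457). The 3 higher ones were IL6, at a low level, JUN (log2FC 0.45, adjusted p = 0.0370) and JUND (log2FC 0.36, adjusted p = 0.00269). Whether any of these bears on the S100 values was not tested.

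Among 11504 genes that averaged 1 FPKM or more, those whose log2(FPKM + 1) was most like that of S100A10 over the 6 libraries were INIP (Pearson r = 0.9988), LMBR1L (r = 0.9986) and DHX32 (r = 0.9986). Those most like S100A11 were DNAJB5 (r = 0.9998), SP6 (r = 0.9996) and MAP3K5 (r = 0.9995). Such values describe 6 libraries in 2 groups and are common, since r was over 0.95 with S100A10 for 1336 genes and with S100A11 for 1102 genes. The 3 libraries against 3 allow no two-sided exact permutation p under 0.1, the value reached by each of the 8 genes whose groups did not overlap.

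**Figure D5:**
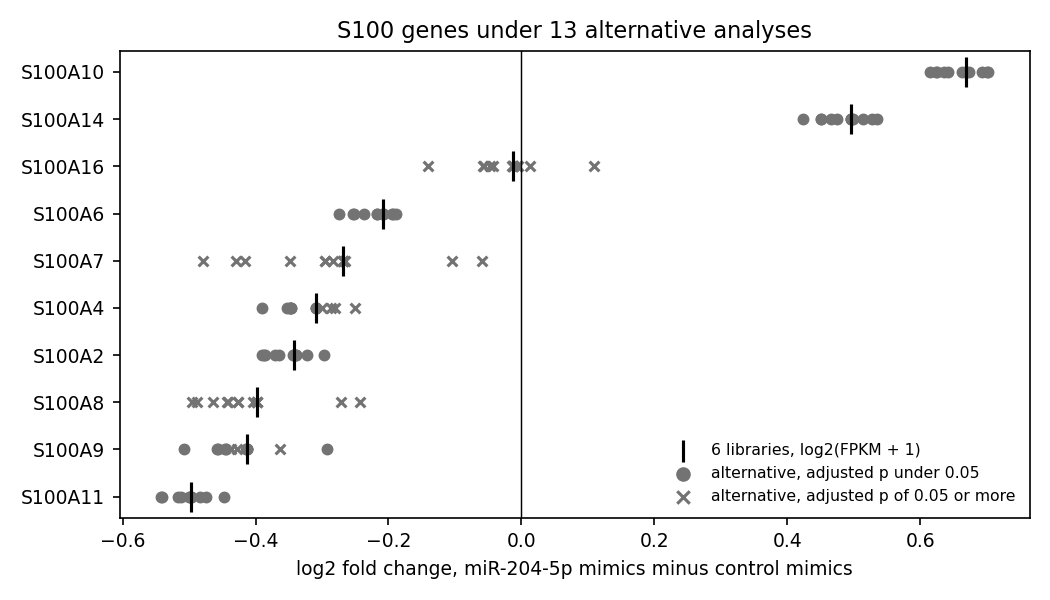
Log2FC of the 10 S100 genes with all 6 libraries (bar) and under 13 alternative analyses, as circles where the adjusted p was under 0.05 and crosses where it was not. S100A10, S100A14, S100A6, S100A2 and S100A11 have circles only, S100A4 and S100A9 have both, and S100A16 has values on both sides of 0.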

How the data were processed

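Bulk RNA-seq libraries (Illumina) of UM-SCC1 cells were grouped by their titles. The authors deposited FPKM values for 14959 genes in 6 libraries, each gene with 1 listed transcript. The submitters' processing notes name HISAT2, StringTie and hg38, and versions, annotation and strand setting are not given in the sources used here. Of the listed transcripts, 14844 had the same coordinates in GENCODE 29, which was used for annotation and 3'UTRs (the longest of any transcript with a stop codon). The table also holds the authors' fold changes and p-values from edgeR, which were not used. No counts were given, so depth per library is unknown beyond the step in low values.

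The log2(FPKM + 1) values were fitted in R 4.3.3 by limma 3.58.1 (linear model and moderated test with a mean-variance trend, no filter), two-sided, with Benjamini-Hochberg adjustment over all genes at 0.05. On simulated data of 14959 genes, 49 of 50 genes changed by a log2 difference of 1 and 12 of 50 changed by 0.3 were called, with 0 false calls. Far fewer genes were changed in this simulation than the 6098 called in the data, so these rates do not carry over to the data. The members and lists were chosen with earlier results of these data known, so no list was tested as a set. Named genes were the 10 members, the other S100 genes, the 4 called genes with the largest absolute fold change in each list (3 in the cluster region), 6 fixed partners and the 3 genes most like the members with the largest rise and fall. BSG, CYBB, IL1B, STAT3, SFN, KRT17, MYH14, PLAUR and AP-1 genes other than FOSL2 were named after their values were seen. Lists comprised partners, regulators and markers of squamous, myeloid, fibroblast, and melanocyte and neural cells. Of the 4 listed melanocyte and neural markers, PMEL was higher and MLANA lower, both below 1.4 FPKM. Alternatives were a pseudocount of 0.1, a mean FPKM of at least 1, a replicate block, 3 scalings, no trend and each library left out. Python 3.11.15, numpy 2.4.6 and pandas 2.3.3 were used.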

Additional observations from a re-analysis of the deposited data

How the results depend on the processing

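Under the 7 alternatives that kept all 6 libraries, 7 of the 10 S100 genes were called in each, and the median log2FC of all genes lay from −0.00 to 0.06. With 1 library left out, 5 to 6 were called, 3 to 4 lower and 2 higher, the lowest count being that without control mimics replicate 2. Log2FC of S100A4 then ranged from −0.39 to −0.25 and that of S100A9 from −0.51 to −0.29, and each lost its call in some of these fits, which use fewer samples. Values without a call changed sign for S100A16 (−0.14 to 0.11), S100A1 (−0.16 to 0.16), S100A3 (−0.10 to 0.049) and TLR4 (−0.0060 to 0.028, and −0.0060 after quantile normalization). Same-numbered libraries showed no shared signal: their deviations correlated at −0.04, −0.02 and −0.11 over genes, and those of differently numbered libraries at −0.07 to 0.11. The deviations are taken from group means, so such values cannot tell whether same-numbered transfections were done together. With the replicate number as a block, 7 S100 genes were called, and 5096 of all genes against 6098 without it. Fragment numbers behind the FPKM are unknown, so no counting interval is given for weakly expressed genes.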

Other observations

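In RefSeq promoters (GRCh38.p14, 250 bases before to 50 after the start), all 15 S100 genes of the table were matched by symbol. The AP-1 letters TGANTCA, which read the same on both strands, were found for S100A2 alone among the 10 genes, as TGACTCA at position −52 from the start, and also for S100A3 and S100A12. They occur in 7.76% of 27305 promoters, and in 5.04% of the 11452 promoters of genes in the table. The letters TATAAA, searched on the gene's strand in the 50 bases before the start, were found for S100A4, S100A7 and S100A9 of the 10 genes and for S100A12 and S100P. They occur in 2.92% of all promoters and in 2.14% of those of genes in the table. These are descriptions of letters, and no test was run on them. Of the AP-1 genes of the regulator list, FOSL2 and JUNB were lower and JUN and JUND higher, while FOS and FOSL1 did not pass the threshold (limma adjusted p under 0.05).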
